A study of Mus musculus with 6 samples.

Results

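Basal cells and stratified squamous epithelium are marked by Trp63, Krt5, Krt14, Krt15, Krt13, Krt4, Krt6a, Dsg3, Dsc3 and Sprr3. These 10 genes, of 55421 in the deposited count table, were picked by symbol, and all 10 were found. Their RNA was measured by strand-specific sequencing of polyadenylated RNA from mouse lung lobes at E18.5, frozen whole and dissected before the lung held air. The 3 knockout libraries carry the genotype Mll3FDC/FDC, named Mll3 KO in the labels, and the other 3 libraries are wild type. No agent, strain or sex is given for either genotype. Mll3, also named Kmt2c, encodes a histone H3 lysine 4 methyltransferase. The design asks what its loss changes in the lung just before birth. Whether the 3 samples of a genotype came from separate embryos is not stated, so p-values measure only the spread between these samples, part of which may be technical.

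Library totals ran from 20158689 to 23305306 reads, so 3 reads amounted to 0.126 to 0.147 CPM, a gene's reads on a common library total, after scaling by the trimmed mean of M-values (TMM). Kmt2c itself had 143, 171 and 159 CPM in knockouts 1, 2 and 3, against 162, 179 and 162 CPM in wild types 1, 2 and 3. A whole-gene count does not check a genotype whose altered part is not given in the sources used here. Several libraries stood apart before any genotype comparison. Knockout 3 held epidermal genes such as Krt1 and Krt10, wild type 1 held most of the genes described here, and skeletal muscle genes were high in both knockout 2 and wild type 1. Knockout 3 also held 59951 reads of Xist, the X-inactivation RNA, and the other 5 libraries held 6 to 27. The Y-linked genes Kdm5d, Eif2s3y, Uty and Ddx3y had 0 to 2 reads each in knockout 3 and 1177 to 3829 in the other 5, so knockout 3 has a female pattern, the others a male one, and knockout 3 is no technical repeat of the other knockouts. The members' genotype results are given with all libraries and without wild type 1, and the list medians printed likewise where they moved by over 1.5 times.

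Stratified epithelia renew from a basal layer fixed to the basement membrane, and cells leaving that layer switch keratins and build desmosomes and a cornified envelope as they move up. The transcription factor p63, encoded by Trp63, is needed for such epithelia to form. Krt5 and Krt14 are the keratin pair of the basal layer. Krt4 and Krt13 pair in the upper layers of internal stratified epithelia such as that of the oesophagus, and Krt1 and Krt10 pair in the upper layers of the epidermis. In the mouse airway, basal cells lie mainly in the trachea and the main bronchi, whereas the alveolar and distal airway epithelium uses simple keratins such as Krt8 and Krt18.

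The promoters below belong to genes that were highest in wild type 1 or in knockout 3. Of these, Krt5 was highest in wild type 1 and second highest in knockout 3. Each is the 60 bases before the start site on the minus strand, from RefSeq for GRCm38.p6, written 5′ to 3′, with the letters ATAAA in capitals. Of the 10 genes, 4 had a promoter entry and 3 had one whose start lay within 20 bases of the counted gene model, Krt13, Sprr3 and Krt5. Krt10 and Lor, which led in knockout 3, are shown beside them.
Krt13, chr11:100121567-100121626: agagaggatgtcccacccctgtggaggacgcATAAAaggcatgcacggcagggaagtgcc
Sprr3, chr3:92458721-92458780: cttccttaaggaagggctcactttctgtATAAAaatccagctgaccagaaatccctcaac
Krt5, chr15:101712906-101712965: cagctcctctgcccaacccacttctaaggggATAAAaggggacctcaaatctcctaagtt
Krt10, chr11:99389365-99389424: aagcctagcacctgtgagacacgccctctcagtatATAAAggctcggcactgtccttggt
Lor, chr3:92083143-92083202: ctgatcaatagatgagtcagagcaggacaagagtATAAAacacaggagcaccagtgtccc
The 5 letters ATAAA, part of the TATA box core, begin 29 bases before the start of Krt13, 32 before Sprr3, 29 before Krt5, 25 before Krt10 and 26 before Lor. Searched on both strands, they occur in 11.8% of all 32851 windows of the same length in the promoter table, and on the transcript strand in 7.48%. The motif was chosen after these sequences were read, and a match describes letters only. It is present in genes that led in knockout 3 and in genes that led in wild type 1.

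Trp63 (ENSMUSG00000022510, chromosome 16, 25683763 to 25892102, plus strand) had 16, 42 and 30 reads in knockouts 1, 2 and 3, against 229, 22 and 10 reads in wild types 1, 2 and 3. That is 0.670, 2.05 and 1.40 CPM in knockout lungs, against 10.3, 0.958 and 0.470 CPM in wild-type lungs. Wild type 1 was 5.03 times the next library, knockout 2, wild type 2 lay among the knockouts and wild type 3 below them, so the genotypes overlap. Its mean was 1.37 ± 0.693 CPM in knockout lungs and 3.92 ± 5.56 CPM in wild-type lungs (SD, n = 3 each).

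Among the basal keratins, Krt5 (ENSMUSG00000061527, chromosome 15, 101707070 to 101712898, minus strand) had 2, 16 and 82 reads in knockouts 1, 2 and 3, against 1243, 4 and 5 in wild types 1, 2 and 3. It stood at 3.83 CPM in knockout 3, against 56.1 CPM in wild type 1, and was under 1 CPM in the other 4 libraries. The mean was 1.56 ± 1.99 CPM in knockout lungs and 18.8 ± 32.3 CPM in wild-type lungs. Its partner Krt14 (ENSMUSG00000045545, chromosome 11, 100203162 to 100207548, minus strand) had 4, 28 and 55 reads in knockouts 1, 2 and 3, against 153, 3 and 5 in the wild types. Knockout 3, at 2.57 CPM, came next below wild type 1, at 6.91 CPM, which was 2.69 times as high. For both partners, knockouts 2 and 3 lay above wild types 2 and 3, while knockout 1 lay at their level or below it.

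Krt15 (ENSMUSG00000054146, chromosome 11, 100131758 to 100135928, minus strand), a basal type I keratin, was the member with the most even levels. Its reads numbered 791, 1444 and 859 in knockouts 1, 2 and 3, against 4892, 619 and 1157 in wild types 1, 2 and 3. Knockout 2, at 70.6 CPM, came next below wild type 1, at 221 CPM, which was 3.13 times as high, and the remaining libraries held 27.0 to 54.4 CPM. It was the one member above 10 CPM in every library. Krt15 lies 10191 bases from Krt13 and 67233 bases from Krt14 on chromosome 11, and these 3 neighbours differed in how far wild type 1 stood apart.

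The pair of the upper layers had few reads outside wild type 1. Krt13 (ENSMUSG00000044041, chromosome 11, 100117327 to 100121566, minus strand) had 16, 18 and 18 reads in knockouts 1, 2 and 3, against 4969, 8 and 23 in wild types 1, 2 and 3. Wild type 1, at 224 CPM, was 208 times the next library, wild type 3. Krt4 (ENSMUSG00000059668, chromosome 15, 101918535 to 101924735, minus strand) had 21, 34 and 12 reads in the knockouts, against 6359, 11 and 20 in the wild types. Here wild type 1, at 287 CPM, was 173 times knockout 2. Without wild type 1, both partners lay between 0.349 and 1.66 CPM in all 5 libraries, knockout and wild type alike. Their means were 0.797 ± 0.112 CPM for Krt13 and 1.03 ± 0.568 CPM for Krt4 in knockout lungs, and 75.3 ± 129 CPM and 96.2 ± 165 CPM in wild-type lungs, where the SD exceeds the mean.

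Krt6a (ENSMUSG00000058354, chromosome 15, 101689910 to 101694307, minus strand), a keratin induced by stress and found in oral epithelium, had 0, 2 and 1 reads in knockouts 1, 2 and 3, against 373, 0 and 1 in the wild types. Its close relative Krt6b had 0, 0 and 1 reads in the knockouts and 28, 0 and 0 in the wild types. Reads that fit both genes could be split or dropped, so the division between them is uncertain. The same holds for Krt14 beside Krt16 and Krt17. Sprr3 (ENSMUSG00000045539, chromosome 3, 92456502 to 92458720, minus strand), a cornified envelope protein of the oesophagus, had 0 reads in each of the 3 knockouts, against 170, 0 and 0 in wild types 1, 2 and 3. At 7.68 CPM in wild type 1 it was 61.1 times knockout 1, with that library set to 3 reads, or 0.126 CPM. In knockout 2, 3 reads amounted to 0.147 CPM, so the lead over that library counted this way was smaller.

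The desmosomal cadherins of the lower layers did not share 1 pattern. Dsg3 (ENSMUSG00000056632, chromosome 18, 20510274 to 20547459, plus strand), desmoglein 3, had 1, 1 and 0 reads in knockouts 1, 2 and 3, against 452, 1 and 0 in wild types 1, 2 and 3. Dsc3 (ENSMUSG00000059898, chromosome 18, 19960930 to 20002351, minus strand), desmocollin 3, had 4, 5 and 42 reads in the knockouts, against 14, 4 and 3 in the wild types. Knockout 3 held most of Dsc3, at 1.96 CPM, which was 3.10 times wild type 1 at 0.632 CPM. Dsc3 was the single member whose highest library was not wild type 1. Per kilobase of gene model, knockout 3 had 0.363 CPM of Dsc3 and no read of Dsg3. On the same scale wild type 1 had 0.117 CPM of Dsc3 and 2.93 CPM of Dsg3.

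**Figure D1:**
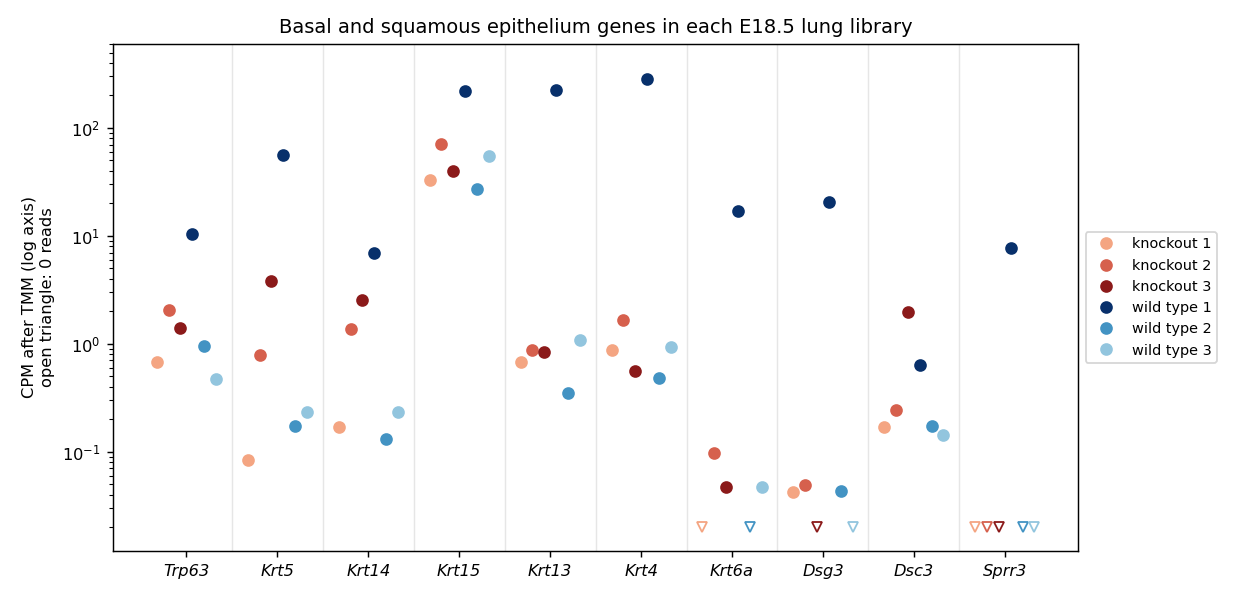
CPM after TMM scaling (log axis) of the 10 genes in each of the 3 knockout and 3 wild-type libraries; open triangles mark 0 reads. Knockout 3 is the highest point for Dsc3 and wild type 1 for the other 9 genes, and the knockout and wild-type points overlap for every gene.

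Wild type 1 was the highest library for 9 of the 10 genes, against 14.4% of the 24521 genes with at least 11 reads. For 7 of the 10 it led by 4-fold or more, with libraries under 3 reads set to 3, against 0.253% of those genes. A lead of 20-fold or more in wild type 1 was found for 12 genes of the whole table, and 5 of these are members: Krt13, Krt4, Krt6a, Dsg3 and Sprr3. Summed over the 10 genes, reads made up 0.0840% of wild type 1, with a 95% exact binomial interval of 0.0828 to 0.0852% that covers counting error only. The other 5 libraries held 0.00289 to 0.00789%. The summed level was 35.8, 77.8 and 51.3 CPM in knockouts 1, 2 and 3, against 851, 29.3 and 57.6 CPM in wild types 1, 2 and 3. In bulk tissue, fewer cells of a type and less RNA per cell cannot be told apart.

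The label of these genes was checked against the other libraries. Wild type 1 held the basal genes Trp63, Krt5 and Krt14 together with the upper-layer genes Krt4, Krt13 and Sprr3. In knockout 1 and wild types 2 and 3, 619 to 1157 reads of Krt15 stood beside 2 to 5 reads of Krt5, 3 to 5 of Krt14 and 10 to 22 of Trp63, so there the label rests mainly on Krt15. Levels per kilobase in wild type 1 were 135 CPM for Krt4, 125 for Krt15, 123 for Krt13, 25.6 for Krt5, 6.97 for Krt6a, 6.28 for Sprr3, 3.93 for Krt14 and 1.23 for Trp63.

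The make-up of keratins was taken as each gene's share of the summed CPM per kilobase of 13 keratins of stratified epithelium. Krt4 and Krt13 together made up 3.52, 2.79 and 0.615% in knockouts 1, 2 and 3, against 60.2, 2.32 and 3.01% in wild types 1, 2 and 3. Krt1 and Krt10, the epidermal pair, made up 10.3, 5.26 and 76.7% in the knockouts, against 0.493, 11.6 and 6.39% in the wild types. Krt15 was 84.6 and 88.4% in knockouts 1 and 2 and 85.0 and 89.5% in wild types 2 and 3, but 19.3% in knockout 3 and 29.2% in wild type 1. Knockouts 1 and 2 and wild types 2 and 3 thus had the same leading keratin in both genotypes. Summed stratified keratins over summed simple keratins, both per kilobase, gave ratios of 0.0746, 0.153 and 0.378 in knockouts 1, 2 and 3, against 1.03, 0.0513 and 0.0825 in the wild types.

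**Figure D2:**
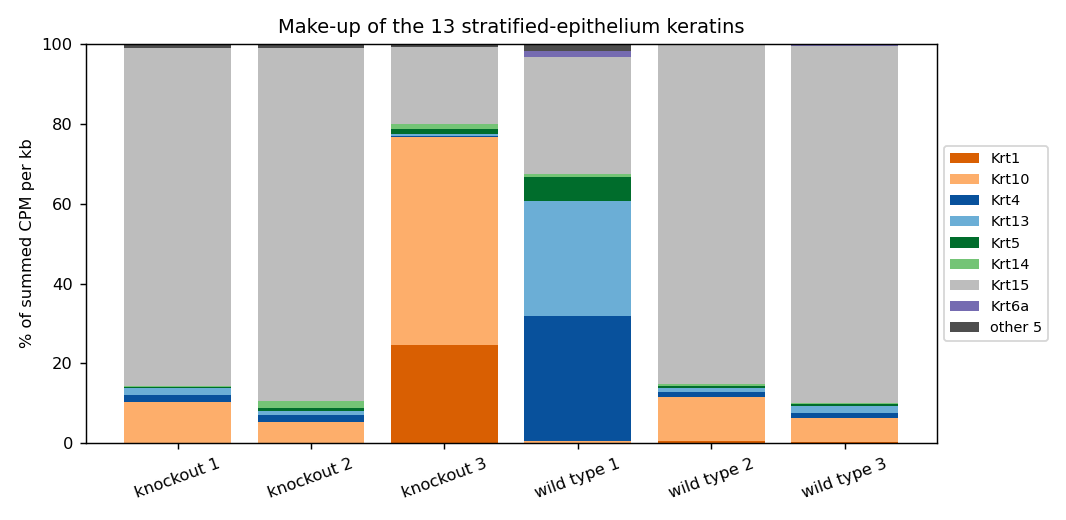
Share of each keratin in the summed CPM per kilobase of 13 stratified-epithelium keratins, one bar per library, in %. Krt1 and Krt10 fill 76.7% of knockout 3, Krt4 and Krt13 fill 60.2% of wild type 1, and Krt15 fills 84.6 to 89.5% of the other 4 libraries.

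No member was called between genotypes. Of the 10 genes, 6 passed the filter on low counts; Krt6a, Dsg3, Dsc3 and Sprr3 did not and were not tested. In edgeR's quasi-likelihood test with Benjamini-Hochberg adjustment over 19042 genes and a threshold of 0.05, 0 of the 6 were higher and 0 lower in knockout lungs, and 0 had an unadjusted p under 0.05, against 10.7% of all genes tested. DESeq2 and limma also called 0, but DESeq2 gave no adjusted p for Krt5, Krt13 and Krt4 and so could not call them. Over all genes, 0.368% were called, 0.063% as higher and 0.305% as lower. With all libraries, the genotypes overlapped in all 10 members and did not overlap in 17% of the tested genes. They also overlapped in all 10 members without wild type 1, where no share over all genes was taken. Sprr3 had 0 reads in each of those libraries, so it could only overlap. Krt6a and Dsg3 had 0 to 2 reads in each, so their overlap shows nothing about genotype.

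The fitted log2 fold changes, knockout over wild type, followed wild type 1. Krt13 gave −6.56 ± 3.09 (SE; edgeR adjusted p = 0.564) and Krt4 −6.55 ± 3.13 (adjusted p = 0.57). Without wild type 1 these became 0.16 ± 0.48 (adjusted p = 0.983) and 0.54 ± 0.52 (adjusted p = 0.926). For Krt5 the value was −3.61 ± 2.53 (edgeR adjusted p = 0.699) with all libraries and 2.89 ± 1.70 (adjusted p = 0.865) without wild type 1. Trp63 moved to 0.91 ± 0.52 without that library, against −1.52 ± 1.34 with it, and Krt15 to 0.23 ± 0.50, against −1.07 ± 0.95; the edgeR adjusted p was 0.76 or above in all 4 fits. Krt14 gave −0.84 ± 1.70 (edgeR adjusted p = 0.915) with all libraries. Each of the 6 genes thus changed sign when wild type 1 was left out, and none did when any other single library was left out.

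Their median log2 fold change was −2.57 with all libraries and 0.72 without wild type 1, beside 0.01 for all genes tested in each fit. Without wild type 1, 3 of 19425 genes were called, 0.0154%. Krt14 was the member nearest to a call in that fit, at 2.86 ± 1.19 (edgeR adjusted p = 0.732). With the filter on low counts also left off, Krt14 passed the threshold as higher in knockout lungs at 2.86 (edgeR adjusted p = 0.00854), with 0.384% of 33879 genes called higher. This rests on 4, 28 and 55 reads in the knockouts against 3 and 5 reads in wild types 2 and 3. The sample titles carry 1 of 2 number prefixes, whose meaning is not stated. Within one prefix the summed level was 35.8 CPM in knockout 1, against 851 and 29.3 CPM in wild types 1 and 2. Within the other it was 77.8 and 51.3 CPM in knockouts 2 and 3, against 57.6 CPM in wild type 3.

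**Figure D3:**
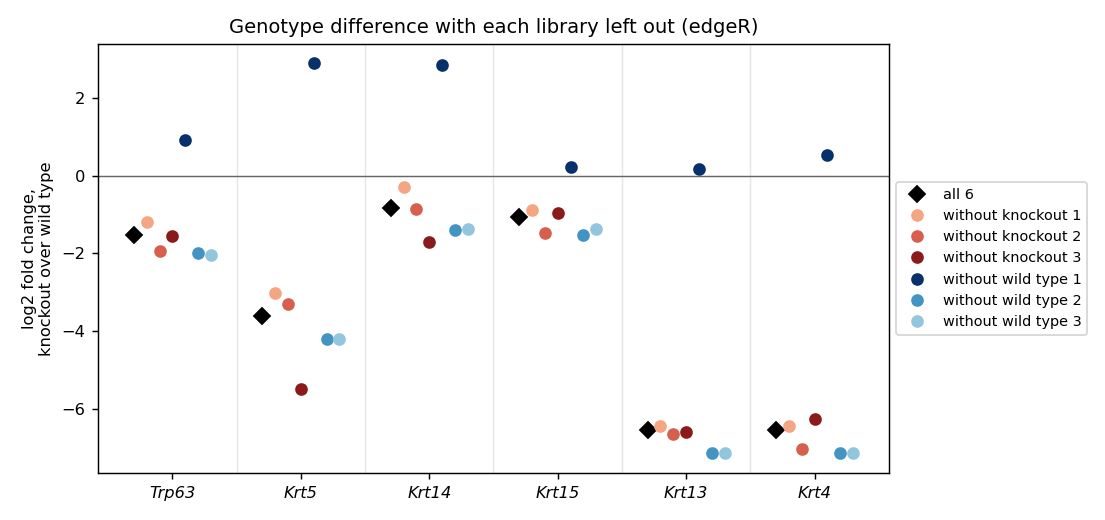
Log2 fold change, knockout over wild type, of the 6 members that passed the filter, from edgeR with all libraries (diamonds) and with each library left out (circles). Leaving out wild type 1 gives the one positive point of each gene, from 0.16 for Krt13 to 2.89 for Krt5.

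Other gene lists were read from the same fit, in which 10.7% of all 19042 genes tested had an unadjusted p under 0.05. A term for the title prefix, tried as an alternative, brought 14 of the genes named below past the threshold that did not pass without it: Fgfr2, Egfr, Cdh3, Pkp2, Klf5, Krt7, Krt19, Aire, Col9a3, Tmem212, Foxj1, Dynlrb2, Gabrp and Hp, with edgeR adjusted p from 0.00752 to 0.049. That fit called 142 genes higher and 483 lower of all 19042. Of the 31 genes named from these lists by low p, DESeq2 brought 10 past the threshold. The fit with no filter brought 9 and lost 1. The 10 were Fgfr2, Egfr, S100a14, Evpl, Krt7, Krt19, Krt8, Krt80, Col9a3 and Gabrp, with DESeq2 adjusted p from 1.67e-07 to 0.0274. Among other genes of basal cells, 11 were listed and 9 were tested: 0 passed in either direction, 3 had an unadjusted p under 0.05 and the median log2 fold change was 0.16, or 0.30 without wild type 1. These 3 were Fgfr2, an FGF receptor, at 0.35 ± 0.07, Egfr, the EGF receptor, at −0.43 ± 0.09, and Cdh3, P-cadherin, at 0.40 ± 0.09, with edgeR adjusted p from 0.0955 to 0.12. All 3 have over 350 reads in every library and did not follow wild type 1. Krt17 did: it had 6, 13 and 13 reads in knockouts 1, 2 and 3, against 211, 1 and 2 in wild types 1, 2 and 3. Without wild type 1 its genotypes did not overlap, at 2.75 ± 0.75 (edgeR adjusted p = 0.393). With the filter also left off, Krt17 (edgeR adjusted p = 0.0404) and Ngfr (1.79, adjusted p = 0.0181) passed as higher in knockout lungs. Egfr passed as lower (−0.42, edgeR adjusted p = 0.0106). That fit called 130 genes higher and 353 lower of 33879. Hemidesmosome genes, which anchor basal cells, were near even: 9 were tested, 0 passed, and the median was −0.10. Lamb3, a laminin chain, had the lowest p there, at 0.14 ± 0.06 (edgeR adjusted p = 0.397), and was the one of them with an unadjusted p under 0.05.

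Genes of squamous differentiation split between knockout 3 and wild type 1. Of 28 such genes with at least 11 reads, 10 were highest in knockout 3 and 18 in wild type 1, and none in another library. Over the 24521 genes, 12.7% were highest in knockout 3 and 14.4% in wild type 1. Leads of 4-fold or more numbered 7 in knockout 3 and 8 in wild type 1, against 0.139% and 0.253% of those genes. In wild type 1 these included Calml3, a calmodulin-like protein, with 1, 3 and 39 reads in the knockouts against 496, 2 and 6 in the wild types. Tgm3, a transglutaminase, had 4, 1 and 21 reads in the knockouts, against 244, 4 and 1 in the wild types. The protease gene Tmprss11b had 175 reads in wild type 1 and 0 in each other library. These genes, and those of knockout 3 that follow, were named after their values were seen.

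Knockout 3 led in several genes of the epidermal upper layers, though not in all: Tgm3 and Lypd3, also of upper layers, were higher in wild type 1. Krt1 had 4, 6 and 2748 reads in knockouts 1, 2 and 3, against 8, 10 and 8 in wild types 1, 2 and 3, and its partner Krt10 had 113, 100 and 2774, against 95, 96 and 95. Knockout 3 was thus 294 times the next library for Krt1 and 26.5 times for Krt10. Flg, which encodes filaggrin, had 0, 0 and 235 reads in the knockouts, against 0, 1 and 0 in the wild types. Lor, which encodes the envelope protein loricrin, had 33, 22 and 387 reads, against 17, 12 and 0. Among desmosomal cadherins, Dsg1a had 0, 0 and 73 reads in the knockouts, against 5, 0 and 0 in the wild types, and Dsc1 had 1, 0 and 47, against 0 in each wild type. None of the members led by 4-fold in knockout 3, where Krt5 and Krt14 were second highest and Dsc3 highest.

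The median of the 12 squamous differentiation genes that could be tested was −0.23, or −0.04 without wild type 1. Of these 12, 0 passed and 4 had an unadjusted p under 0.05, against 10.7% of all genes tested. Those 4 were Scel at −1.57 ± 0.47, Evpl at −0.59 ± 0.20, S100a14 at −0.56 ± 0.16 and Ppl at −0.37 ± 0.15, with edgeR adjusted p from 0.264 to 0.438. Scel was at −1.05 without wild type 1 and Ppl at −0.22 without knockout 1. Scel encodes sciellin, and Evpl and Ppl encode the envelope proteins envoplakin and periplakin. In the desmosome list 9 of 14 genes were tested, 0 passed and the median was −0.32, or −0.05 without wild type 1. Pkp2 (−0.32 ± 0.09), Jup (−0.22 ± 0.08), Dsp (−0.33 ± 0.13) and Dsg2 (0.30 ± 0.10) had an unadjusted p under 0.05, with edgeR adjusted p from 0.221 to 0.413. Dsp was at −0.22 without wild type 1. Dsp and Jup, plaque proteins of every desmosome, had 136 to 294 CPM in the knockouts and 177 to 327 CPM in the wild types. Pkp1, a plakophilin of stratified epithelium, had 4, 13 and 117 reads in the knockouts, against 548, 8 and 6 in the wild types, and so was high in both libraries that stood apart.

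**Figure D4:**
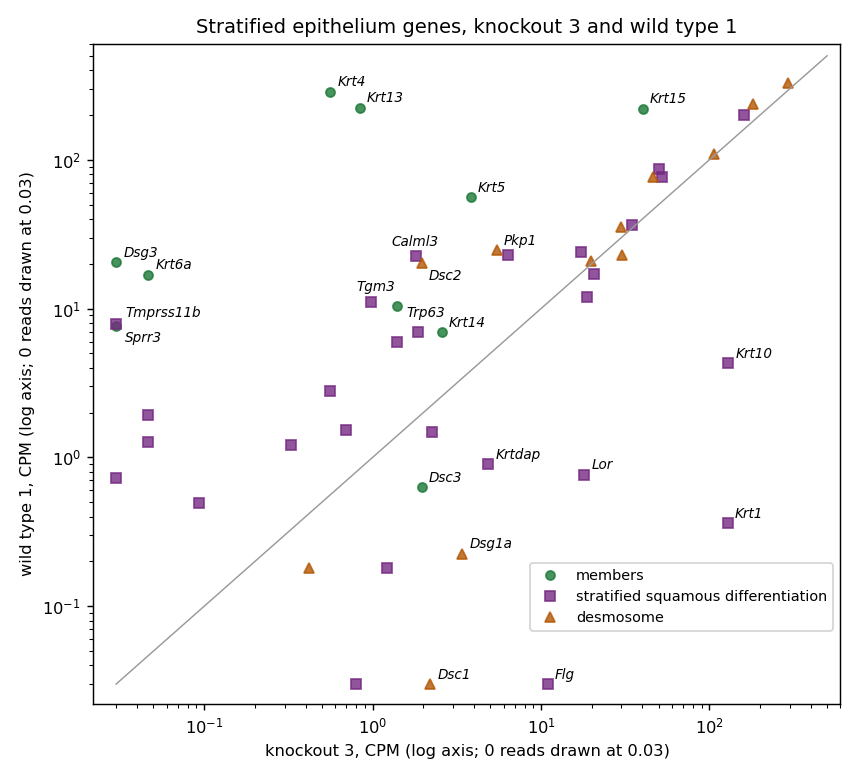
CPM in knockout 3 (horizontal) against wild type 1 (vertical), both on log axes, for the members, the squamous differentiation genes and the desmosome genes with at least 11 reads; the line marks equal levels. Krt4, Krt13, Dsg3, Krt6a and Sprr3 lie far above the line, and Krt1, Krt10, Lor, Flg, Dsg1a and Dsc1 lie far below it.

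Transcription factors of the foregut and of stratified epithelium included 12 tested genes, of which 0 passed; the median was −0.31, or −0.15 without wild type 1. Klf5, at −0.26 ± 0.09, and Zfp750, a factor of epidermal differentiation, at −1.46 ± 0.58, had an unadjusted p under 0.05, with edgeR adjusted p of 0.283 and 0.437. Zfp750 was at −0.67 without wild type 1. Of 15 such genes with at least 11 reads, 10 were highest in wild type 1, 3 of them by 4-fold or more. Over the 24521 genes these shares were 14.4% and 0.253%. Of the rest of the list, 2 were highest in knockout 3 and 3 in wild type 3, against 12.7% and 17.3% of the 24521 genes. Pitx1, a homeobox factor of the oral ectoderm and the hindlimb, had 0, 1 and 0 reads in the knockouts, against 193, 0 and 0 in the wild types. Foxe1, a forkhead factor of the thyroid bud and oral epithelium, had 0, 0 and 2, against 69, 0 and 0. Pax9, a factor of the pharyngeal pouches and oesophagus, had 8, 10 and 2, against 155, 6 and 14. All 3 were thus high in the library that held Krt4 and Krt13, and at 2 reads or fewer in knockout 3, which held Krt1 and Krt10; they were named after their values were seen.

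The simple keratins of the lung epithelium were more even between libraries. Of 6 tested, 0 passed in edgeR, and 5 had an unadjusted p under 0.05, against 10.7% of all genes tested. The median log2 fold change was −0.37 with all libraries and −0.34 without wild type 1. Krt7 (−0.35 ± 0.07), Krt19 (−0.41 ± 0.09), Krt8 (−0.37 ± 0.08) and Krt80 (−1.29 ± 0.25) had edgeR adjusted p from 0.0843 to 0.115. The simple keratin list summed to 722, 708 and 749 CPM in knockouts 1, 2 and 3, against 1008, 858 and 996 CPM in wild types 1, 2 and 3.

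Marker lists of other tissues were summed in each library beside the members. Skeletal muscle genes reached 632 CPM in knockout 2 and 643 CPM in wild type 1, and 20.3 to 28.8 CPM in the other 4 libraries. All 11 genes of that list were highest in one of these 2 libraries, 7 in knockout 2 and 4 in wild type 1, against 20.2% and 14.4% of the 24521 genes. Muscle genes were thus about as high in knockout 2, where the members summed to 77.8 CPM, as in wild type 1, where they summed to 851 CPM. Of 9 muscle genes tested between genotypes, 0 passed. Their median log2 fold change was 0.19, or 3.27 without wild type 1. The part of muscle tissue in other genotype differences was not tested. Ngfr, listed as a basal cell gene and also a Schwann cell receptor, had 61 reads in knockout 2 and 59 in wild type 1, and Sox10, a factor of glial and gland cells, 48 and 72. The other 4 libraries had 8 to 14 reads of Ngfr and 4 to 6 of Sox10.

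Lists of neighbouring organs did not stand out in wild type 1. Thymic epithelium genes summed to 198 to 212 CPM in the knockouts and 194 to 212 CPM in the wild types. The defining markers Foxn1 and Psmb11 had 2 reads or fewer in each library, and Fezf2 had 0 in all. The sum thus rests on the list's other genes. Of its 5 tested genes, 0 passed; Aire (1.91 ± 0.38, edgeR adjusted p = 0.073) and Prss16 (1.04 ± 0.37, adjusted p = 0.329) had an unadjusted p under 0.05. Thymocyte genes summed to 2.89 to 5.28 CPM in the knockouts and 2.77 to 3.79 CPM in the wild types. Their median log2 fold change was 0.65 over 2 tested genes, or 0.19 over 3 without wild type 1. Thyroid and parathyroid genes summed to 3.93 to 6.07 CPM in the knockouts and 4.53 to 6.07 CPM in the wild types, with Pax8 and Pth at 0 reads in all. Of 2 tested genes in each of these lists, 0 passed in edgeR and 0 had an unadjusted p under 0.05.

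Airway tissue was present in both genotypes. Cartilage genes summed to 157, 159 and 146 CPM in knockouts 1, 2 and 3, against 124, 147 and 152 CPM in wild types 1, 2 and 3, so wild type 1 was the lowest. Of 9 tested, 0 passed and 4 had an unadjusted p under 0.05, against 10.7% of all genes tested. These were the cartilage collagens Col9a3 (1.30 ± 0.34), Col2a1 (1.12 ± 0.36), Col11a2 (0.79 ± 0.26) and Col9a1 (1.40 ± 0.52), with edgeR adjusted p from 0.19 to 0.384. Without knockout 1, Col9a3 was at 0.79 and Col9a1 at 0.74. The cartilage median was 0.46 over 9 tested genes, or 0.72 over 10 without wild type 1. Ciliated cell genes summed to 145, 248 and 219 CPM in the knockouts, against 251, 234 and 378 CPM in the wild types. All 10 were highest in wild type 3, against 17.3% of the 24521 genes. None passed, and Tmem212 (−0.75 ± 0.27), Foxj1 (−0.44 ± 0.16) and Dynlrb2 (−0.54 ± 0.21) had edgeR adjusted p from 0.358 to 0.411. Without wild type 3 they were at −0.43, −0.26 and −0.28. Secretory cell genes summed to 1035, 1629 and 1246 CPM in the knockouts, against 1912, 1329 and 2122 CPM in the wild types. Of 10 tested, 0 passed, with Gabrp at −0.95 ± 0.25 and Hp at −0.57 ± 0.20 (edgeR adjusted p = 0.201 and 0.385). Hp was at −0.36 without wild type 3. The secretory list median was −0.38, or −0.10 without wild type 1.

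In the gland and myoepithelium list 1 of 4 tested genes fell, against 0.305% of all genes tested. The list median was −0.95, or −0.46 without wild type 1. Aqp5, a water channel of gland cells that alveolar type 1 cells also express, had 24.0, 27.7 and 38.6 CPM in knockouts 1, 2 and 3, against 90.5, 70.4 and 79.0 CPM in wild types 1, 2 and 3, and its genotypes did not overlap. Its log2 fold change was −1.41 ± 0.18 (edgeR adjusted p = 0.0423), and −1.32 without wild type 1 (adjusted p = 0.125). The call was lost with no filter and with any single library left out except knockout 3. Lyz1, a lysozyme, stood at −0.92 ± 0.32 (edgeR adjusted p = 0.397). The gland markers Prol1 and Dmbt1 had 0 or 1 read in each library.

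**Figure D5:**
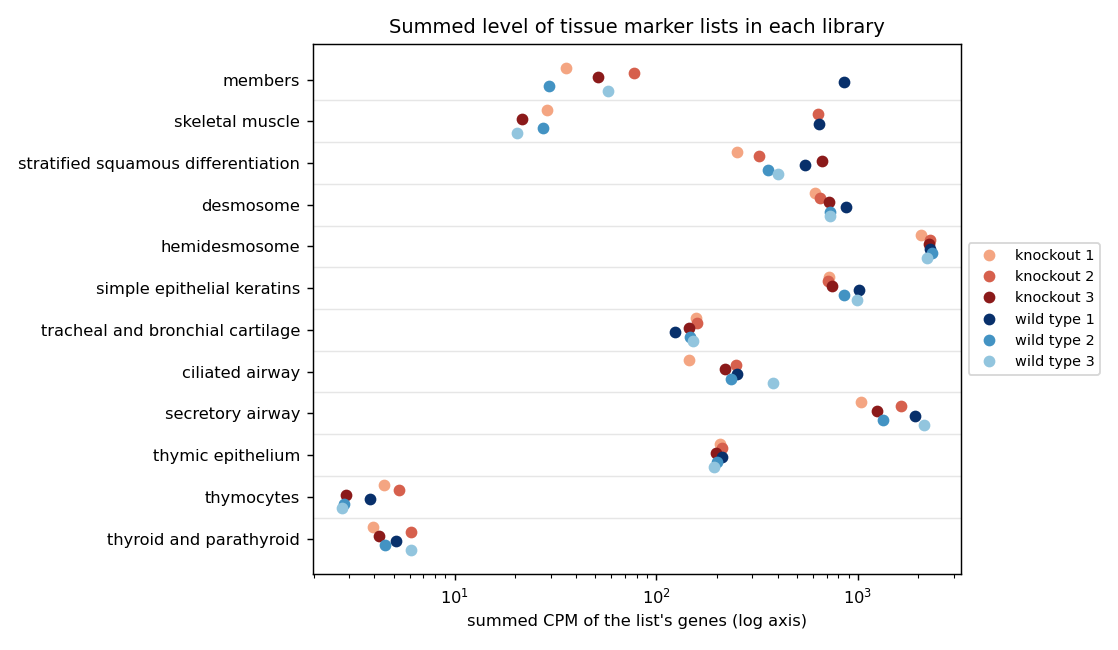
Summed CPM of each marker list in each library (log axis), knockout libraries drawn above wild types within a list. Wild type 1 stands apart for the members at 851 CPM, and knockout 2 and wild type 1 stand apart for skeletal muscle at 632 and 643 CPM.

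The 6 genes outside the member list with the most similar pattern were ranked by Pearson's r between log2 CPM, with 0.1 CPM added, and the log2 summed CPM of the members over the 6 libraries, among 16951 genes of at least 1 CPM on average. They were Sytl1 (r = 0.987), Upk3bl (0.985), Aqp3 (0.980), Dsc2 (0.979), Gsto1 (0.979) and Msc (0.979). The ranking rests on wild type 1: over the other 5 libraries r was 0.723 to 0.934. Gsto1, a glutathione transferase, was the most abundant, with 24.7, 35.3 and 28.0 CPM in knockouts 1, 2 and 3, against 137, 28.3 and 39.0 CPM in wild types 1, 2 and 3. Upk3bl had 0.377, 1.76 and 0.560 CPM in the knockouts, against 22.4, 0.479 and 0.658 CPM in the wild types. Dsc2, a desmocollin of many epithelia, had 64, 67 and 42 reads in the knockouts, against 445, 36 and 57 in the wild types. Aqp3, an aquaporin of basal cells, had 18, 51 and 35 reads, against 256, 22 and 36.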

How the data were processed

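The values tested are raw deposited counts, made with featureCounts from reverse-stranded reads (setting 2) of mapping quality 1 or more, per the file headers. Genes with near-identical copies are therefore uncertain. Reads were 75 bases long, per the labels' protocols; bcl2fastq 2.19.1, GSNAP, featureCounts 1.6.3, DESeq2 1.24.0 and mm10 are named in the submitters' processing notes. The deposited normalized signal is counts divided by 1 size factor per library: multiplied back, 100% of its values for 24521 genes gave the counts within 0.1 read, and no gene in it had under 11 reads. It served as an alternative. The 92 ERCC rows, with 1 read in all, were left out.

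The knockouts and wild types were taken from the genotype label, and replicate numbers follow sample order only. filterByExpr kept 19042 of 34615 genes with a read. The test was edgeR 4.0.16 (R 4.3.3), quasi-likelihood, robust, with TMM scaling and genotype as the only term; a standard error is the log2 fold change's size over the square root of F. Alternatives were DESeq2 1.42.0, limma 3.58.1 (voom, and trend on the normalized signal with 1 added), other scaling and filters, the title prefix as a term, and each library left out; 2 more were added after the data were seen. No 2 libraries of a genotype agreed within sampling noise. The edgeR, DESeq2 and limma steps were tested on simulated data.

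The members and lists were chosen with earlier results of these data known, so counts over them are descriptions. Named genes are the members, in each other list those called or up to 4 with the lowest unadjusted p (here those under 0.05), and the 6 genes of most similar pattern; others were named after their values were seen. One list symbol matched no gene. Coordinates are those of the count table.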

Additional observations from a re-analysis of the deposited data

How the results depend on the processing

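In the edgeR fits, wild type 1 decides the sign of all 6 tested members. With each library left out in turn, log2 fold changes ran from −2.05 to 0.91 for Trp63, −5.50 to 2.89 for Krt5, −1.70 to 2.86 for Krt14, −1.53 to 0.23 for Krt15, −7.15 to 0.16 for Krt13 and −7.14 to 0.54 for Krt4, the positive values being those without wild type 1. Without wild type 1 and knockout 3 together, Trp63 gave 0.89, Krt15 0.35, Krt13 0.12 and Krt4 0.83, and Krt5 and Krt14 left the test. Without wild type 1 and with no filter, Trp63 gave 0.91, Krt5 2.89, Krt14 2.86, Krt15 0.23, Krt13 0.15 and Krt4 0.53, and 1 member was called higher, Krt14. Of the members kept out of the main test, that fit gave Dsc3 2.27 (edgeR adjusted p = 0.0517), Krt6a 0.86 and Dsg3 0.35. Dsc3 had 42 reads in knockout 3, and Sprr3 had no read left to fit. With all libraries kept, Krt14 was 0.38 with limma voom and 0.39 with limma on the normalized signal, so its sign also depended on the method. The cause was not tested. DESeq2 gave no adjusted p for Krt5, Krt13 and Krt4. No member was called in any other alternative; the stricter filter left 3 of the 6 to test.

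Over all genes, 12 were called higher and 58 lower; calls were 103 and 340 with no filter, 60 and 289 with DESeq2, 0 and 8 with limma voom, 142 and 483 with a term for the title prefix, 0 and 1 without wild type 1 and knockout 3, and 130 and 353 without wild type 1 and with no filter. Leaving out 1 library gave 0 to 5 higher and 0 to 36 lower, with 0 in both directions without wild type 2 or without wild type 3, where edgeR had 1954 and 1629 unadjusted p under 0.05. In the other lists, where 0 were higher and 1 lower, calls were 5 and 5 with no filter, 2 and 10 with DESeq2, 4 and 19 with the prefix term, 7 and 14 without wild type 1 and with no filter, and 0 and 0 to 1 with 1 library left out. Aqp5 lost its call with no filter and with any single library left out except knockout 3. No paired analysis was possible because the replicate numbers follow sample order only. At this depth a gene with 3 reads or fewer in a library could not be told from absent there, so levels of Krt6a, Dsg3 and Sprr3 outside wild type 1 are upper limits only.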
